A study of Mus musculus with 26 samples.

Results

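Bile acid transporters are the membrane proteins that carry bile acids into and out of hepatocytes, and 10 of their genes were followed here among the 47643 genes of a mouse liver count table. The genes were chosen by name and by role, not by their values. Slc10a1, Slco1a1, Slco1a4 and Slco1b2 serve uptake from blood, Abcb11 and Abcc2 serve export across the canalicular membrane into bile, and Abcc3, Abcc4, Slc51a and Slc51b serve efflux across the basolateral membrane back to blood.

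In the liver, bile acids return from the gut in portal blood and are taken up by the sodium-dependent carrier encoded by Slc10a1 and by the sodium-independent organic anion transporters of the Slco family. Abcb11 encodes the bile salt export pump, and Abcc2 encodes a pump for bile acid conjugates, conjugated bilirubin and glutathione conjugates. Abcc3 and Abcc4 encode pumps that return conjugates to blood, and Slc51a and Slc51b encode the 2 subunits of a bidirectional carrier. The nuclear receptor Fxr (gene Nr1h4), which bile acids activate, and its induced repressor Shp (gene Nr0b2) are known regulators of bile acid synthesis and of several of these carriers.

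RNA was sequenced from 26 mouse liver libraries in 10 groups, and each treated group was compared with its own control. In the CAR experiment, wild-type C57BL/6J mice of 8 weeks received TCPOBOP, an agonist of the receptor CAR (2 libraries), or the vehicle corn oil (2 libraries). The time after TCPOBOP is 36 h in the sample titles and 6 h in the source names. Whole livers of Fxr-/- Shp-/- mice (3 libraries) were compared with wild-type livers (3 libraries), all from C57BL/6J mice of 12 weeks. In C3H/HeN mice of 8 to 10 weeks, whole liver at 48 h after partial hepatectomy (3 libraries) was compared with sham-operated liver at 0 h (3 libraries). The labels give no genotype for these mice, and the treated and sham livers differ in time as well as in surgery. In the diet experiment, isolated hepatocytes came from wild-type C57BL/6J mice of 16 weeks after a 10 h fast, on a 60% fat diet (2 libraries) or chow (2 libraries). In the bile acid experiment, whole liver came from C57BL/6J mice of 10 to 12 weeks with fl/fl Fxr fl/fl Shp alleles after an 8 to 10 h fast, on a cholic acid diet (3 libraries) or chow (3 libraries). No Cre is named for these mice, so both groups carry floxed alleles. The other whole-liver mice of C57BL/6J background, and the C3H/HeN mice, fed ad libitum. Dose, diet duration and sex are not given in the sources used here, and no label says whether libraries of a group are separate animals. The p-values therefore measure the spread between these libraries, which may be technical.

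Gene counts per library ranged from 13949059 to 70367874, so that 3 counts, taken as the floor, equal 0.0426 to 0.215 CPM (read counts scaled to a library of 1000000 counts, within an experiment). The summed level of 8 hepatocyte markers, among them Alb, ranged from 52400 to 136000 CPM across libraries. Of 10 bile duct markers, 5 were at 0 in chow hepatocyte replicate 1 and 6 in replicate 2, with Krt19 and Epcam at 0 in both. Others on the list were present there: Sox9 at 4.87 and 6.26 CPM, Spp1 at 5.46 and 3.66 CPM, and Slc10a2 at a mean of 15.7 CPM. In the knockout livers, Nr0b2 was at 0.594, 1.16 and 1.68 CPM against 15, 28.2 and 13.7 CPM in wild type. Nr1h4 was at 65.0, 55.7 and 58.5 CPM against 153, 161 and 117 CPM. The deleted parts of these genes are not given in the labels, so remaining reads do not test the alleles. The library labelled corn oil 1 goes against its label: there the CAR target Cyp2b10 reached 3790 CPM, against 10.3 CPM in corn oil 2 and 3460 and 3080 CPM after TCPOBOP. In the chow group of the cholic acid experiment, replicate 3 stood apart from replicates 1 and 2 for several genes, such as Cyp7a1 at 711 CPM against 109 and 157 CPM. Calls of transporters that rest on these libraries are given with and without them, and for the other gene lists the counts are.

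The transporter genes lie at separate loci apart from 1 cluster (GRCm38 coordinates, GENCODE M21 annotation). Slco1b2 (chr6:141629518-141686646, plus strand), Slco1a4 (chr6:141805440-141856199, minus strand) and Slco1a1 (chr6:141907282-141946962, minus strand) are neighbours on chromosome 6. Slc10a1 lies at chr12:80953183-80968705, Abcb11 at chr2:69238282-69342616, Abcc3 at chr11:94343295-94392997 and Abcc4 at chr14:118482692-118706219, all on the minus strand. Abcc2 lies at chr19:43782192-43840740 on the plus strand. Slc51a (chr16:32474504-32487879) and Slc51b (chr9:65412714-65422955) are on the minus strand. Exons of Slc51a overlap those of Pcyt1a over 17.7% of their length, and those of Slc51b overlap Rasl12 over 12.8%, in both cases on the opposite strand. For Slco1a1 and Slco1a4, 1.64% and 1.61% of their 50-base words also occur in other genes of the Slco1a family or its predicted relatives, so near-identical reads affect a small part of each.

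Promoter sequences, chosen after the values were seen, are shown for Abcb11, Slc51b and Abcc2, which rose with cholic acid, for Slco1b2, and for Slco1a1, which had the largest fall. RefSeq (GRCm38.p6) gave 11 promoters for 9 of the 10 genes, each of 300 bases from 250 before the annotated start to 50 after it. Abcc3 was not matched. Both strands were searched for an inverted repeat of AGGTCA half-sites with 1 base between them (the FXR element, up to 2 mismatches), a direct repeat of AGGTCA with 4 bases between (up to 2 mismatches), and the antioxidant response element core TGACNNNGC with no mismatch. Capitals mark the matches, and lower case marks all other bases. Each sequence runs 5′ to 3′ along the gene's strand.
Abcb11, chr2:69342567-69342866, minus strand: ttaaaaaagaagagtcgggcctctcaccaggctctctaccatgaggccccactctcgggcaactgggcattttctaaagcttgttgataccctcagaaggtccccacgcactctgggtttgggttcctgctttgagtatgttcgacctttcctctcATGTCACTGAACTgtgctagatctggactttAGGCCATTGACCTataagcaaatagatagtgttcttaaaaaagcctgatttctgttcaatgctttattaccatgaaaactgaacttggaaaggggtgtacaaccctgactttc
Slco1b2, chr6:141629268-141629567, plus strand: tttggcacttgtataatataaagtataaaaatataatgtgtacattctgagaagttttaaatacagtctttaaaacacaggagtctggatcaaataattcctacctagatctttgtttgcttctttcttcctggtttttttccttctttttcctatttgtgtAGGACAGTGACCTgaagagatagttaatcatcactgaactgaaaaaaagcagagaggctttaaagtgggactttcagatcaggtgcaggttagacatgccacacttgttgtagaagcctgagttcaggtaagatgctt
Abcc2, chr19:43782058-43782357, plus strand: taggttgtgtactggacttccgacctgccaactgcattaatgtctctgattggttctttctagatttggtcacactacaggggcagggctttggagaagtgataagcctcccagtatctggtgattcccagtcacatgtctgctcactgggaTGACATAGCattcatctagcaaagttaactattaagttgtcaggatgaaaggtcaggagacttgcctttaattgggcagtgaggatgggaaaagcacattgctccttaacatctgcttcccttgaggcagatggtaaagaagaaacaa
Slc51b, chr9:65422724-65423023, minus strand: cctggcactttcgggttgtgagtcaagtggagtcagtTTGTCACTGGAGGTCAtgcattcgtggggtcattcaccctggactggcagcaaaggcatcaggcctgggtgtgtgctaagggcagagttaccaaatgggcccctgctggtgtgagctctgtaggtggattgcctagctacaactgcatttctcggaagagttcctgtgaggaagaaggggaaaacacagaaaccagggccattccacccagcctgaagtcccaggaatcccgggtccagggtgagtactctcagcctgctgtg
Slco1a1, chr6:141946913-141947212, minus strand: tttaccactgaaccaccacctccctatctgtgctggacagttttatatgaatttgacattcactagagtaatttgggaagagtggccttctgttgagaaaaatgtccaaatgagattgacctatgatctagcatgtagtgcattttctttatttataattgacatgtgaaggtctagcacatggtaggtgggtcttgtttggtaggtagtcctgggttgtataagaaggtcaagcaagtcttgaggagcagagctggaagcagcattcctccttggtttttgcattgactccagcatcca

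With the start base counted as 0, the Abcb11 promoter held an FXR element at -63 to -51 with 1 mismatch and a weaker match at -94 to -82 with 2 mismatches. The Slco1b2 promoter held an FXR element at -88 to -76 with 1 mismatch. An FXR element with this tolerance occurred in 1.14% of the 32851 promoters searched. In the Abcc2 promoter, an antioxidant core lay at -98 to -90. The direct repeat matched the Slc51b promoter at -213 to -198 with 2 mismatches. These motifs occurred in 12.4% (antioxidant core) and 3.02% (direct repeat) of promoters. Both Abcc4 promoters held an antioxidant core, at -25 to -17 on the opposite strand of the gene and at -23 to -15. No match lay in the windows of Slc10a1, Slco1a1, Slco1a4 or Slc51a. A match describes letters in a window and shows neither binding nor use.

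Levels of different genes were compared as CPM per kilobase of exon. In wild-type livers, Slco1b2 was the highest at 264 ± 14.4 CPM per kilobase (SD, n = 3), followed by Slc10a1 at 228 ± 4.24. Abcc2 at 92.1 ± 2.21, Abcc3 at 91.7 ± 9.72 and Abcb11 at 80.2 ± 7.82 CPM per kilobase formed a middle group in which the spreads of neighbours overlapped. Slco1a1 followed at 52.6 ± 7.97 and Slco1a4 at 40.0 ± 0.972 CPM per kilobase. Abcc4 at 0.313 ± 0.139 and Slc51b at 0.252 ± 0.151 CPM per kilobase were far lower and lay within each other's spread. The 2 highest genes were uptake carriers and the 2 lowest were efflux genes. Slco1b2 was also the highest in the corn oil, chow hepatocyte and flox chow groups, whereas Slc10a1 was the highest in sham livers at 451 ± 24.4 CPM per kilobase against 321 ± 12.3 for Slco1b2. Slc51a had 0 counts in all 26 libraries, which together held 750201859 gene counts, so that 3 counts over all libraries would be 0.004 CPM. In bulk tissue, fewer cells of a type and less RNA per cell cannot be told apart, and this holds for every level below.

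**Figure D1:**
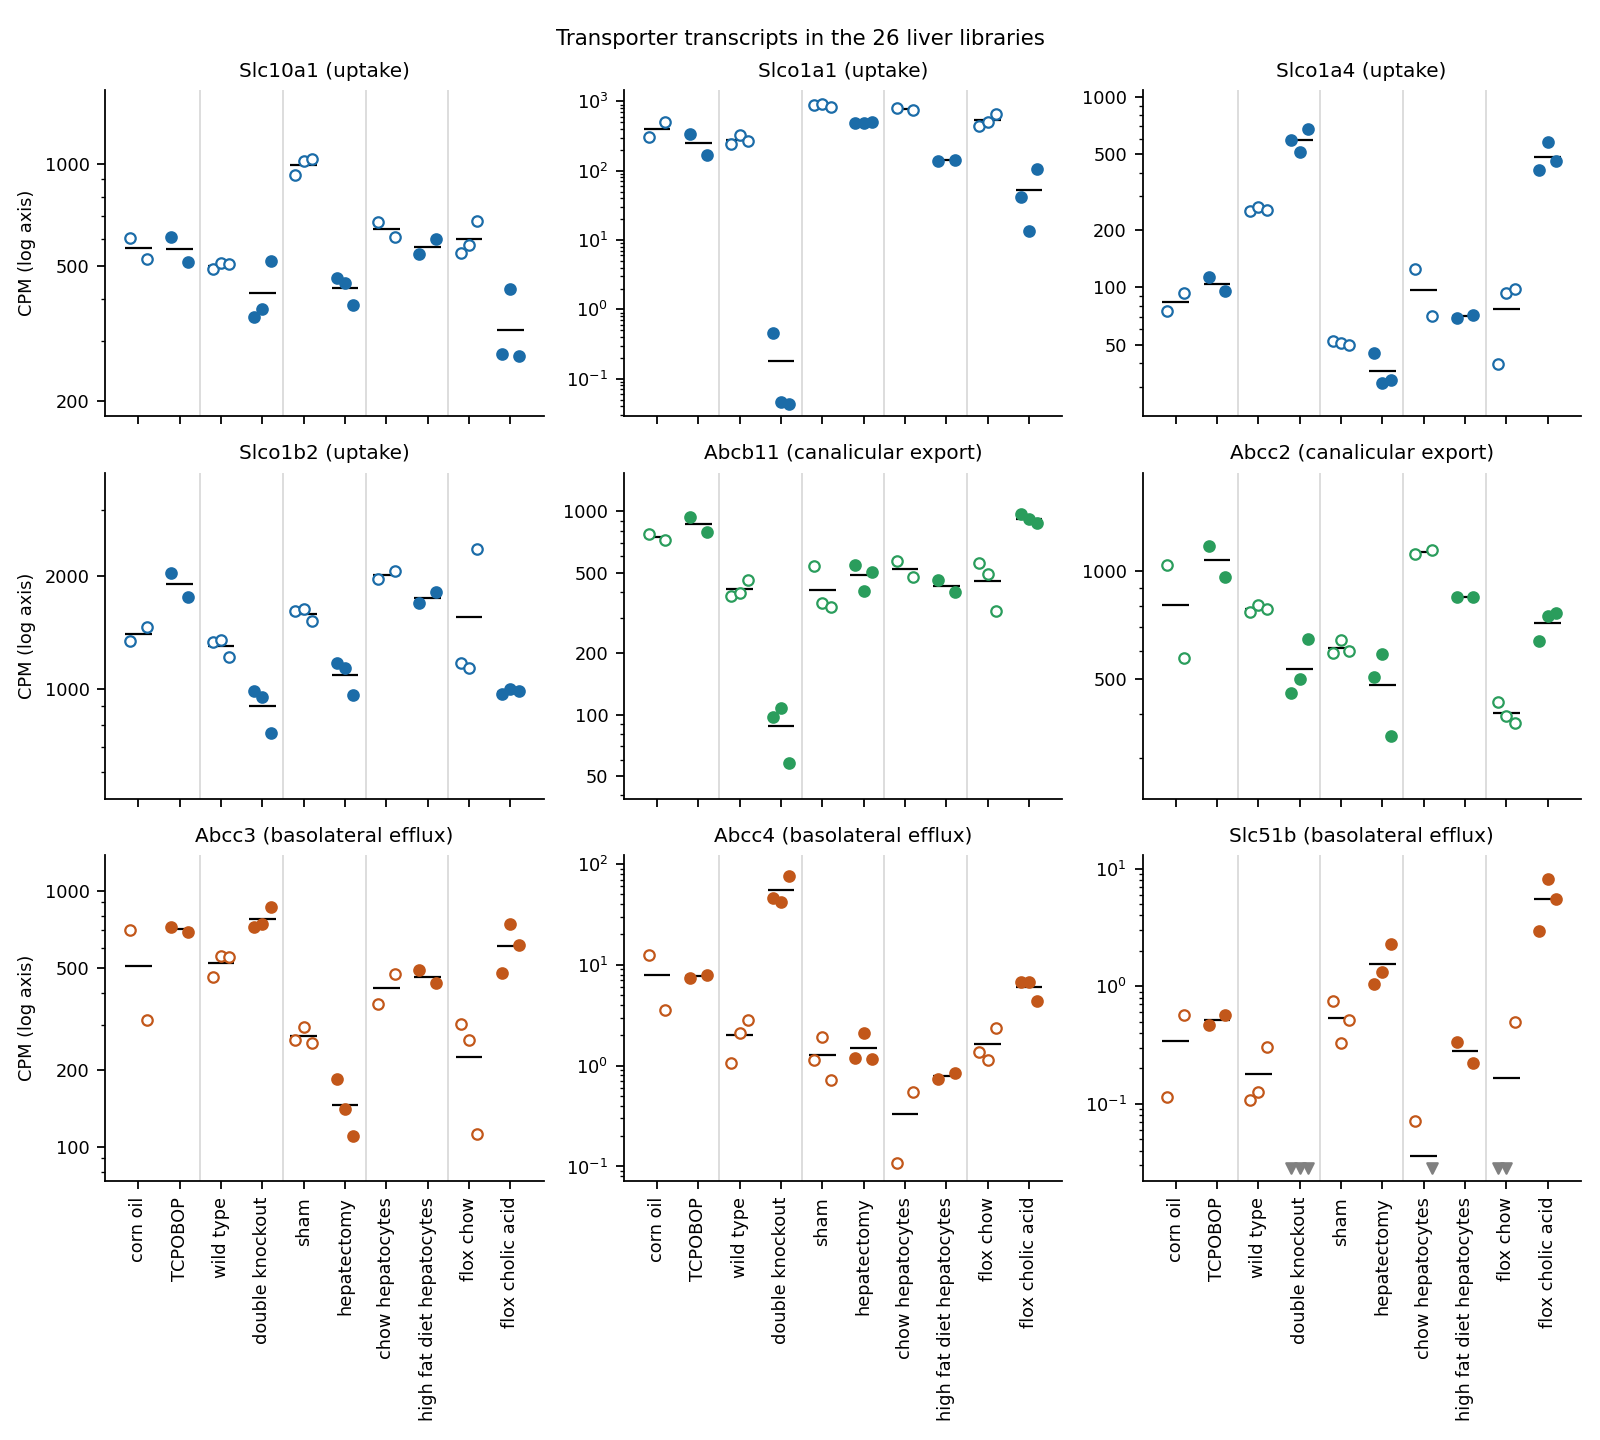
Level of 9 transporters in each of the 26 libraries (vertical log axis, CPM; horizontal axis, the 10 groups in pairs of control and treated). Open circles are control libraries, filled circles are treated libraries, black lines are group means, and grey triangles at the bottom mark libraries with 0 counts; Slc51a, at 0 in every library, is left out. Slco1a1 lies at 0.457 CPM or below in the knockout livers and at 13.5 CPM or above in every other library.

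Loss of Fxr and Shp changed transporters in all 3 roles. Slco1a1 fell to near the floor, Abcb11 fell to 21.3% of its wild-type mean, and the efflux pump Abcc4 rose 27.4-fold. Of the 8 transporters with enough counts to be tested, 7 were called at an adjusted p under 0.05, of which 3 were higher and 4 were lower. Slco1a1, 1 of the 4 called lower, passed the filter on low counts only through the wild-type libraries. It could therefore add only to the lower side of these counts. Over all 13473 genes tested, 40.4% were called (21% higher and 19.4% lower). The groups did not overlap for 7 of the 8, as for 53.4% of all genes. The median log2 fold change was -0.40 over the 8 and -0.01 over all genes. All adjusted p-values come from edgeR's quasi-likelihood F test with Benjamini-Hochberg adjustment over all genes tested, and errors of log2 fold changes are standard errors.

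Among the uptake carriers, Slco1a1, an organic anion carrier known for its high expression in male mouse liver, was at 243, 324 and 265 CPM in wild type and at 0.457, 0.0465 and 0.0431 CPM in the knockout. The knockout values rest on 10, 1 and 1 counts, of which replicate 1 holds most. Summed over libraries, 12 counts against 14036 gave a rate 0.0751% of that in wild type, with a 95% interval of 0.0388% to 0.131% that covers counting error only. The fitted log2 fold change was -10.54 ± 0.38 (adjusted p = 4.79e-07). Slco1a4, its close relative and a carrier of bile acids and cardiac glycosides, moved in the other direction. Its levels were 252, 263 and 254 CPM in wild type and 597, 514 and 678 CPM in the knockout, a log2 rise of 1.22 ± 0.12 (adjusted p = 0.000104). The 2 groups did not overlap. Slco1b2, the mouse counterpart of the human hepatic OATP1B carriers, fell from 1330, 1350 and 1220 CPM to 990, 950 and 764 CPM, a log2 change of -0.53 ± 0.12 (adjusted p = 0.00970). Slc10a1 was at 491, 509 and 506 CPM in wild type and at 354, 375 and 518 CPM in the knockout, and replicate 3 of the knockout lay above all wild-type values. That difference was not called, with a log2 value of -0.27 ± 0.15 (adjusted p = 0.166), but without knockout replicate 3 it was called.

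Both canalicular pumps fell. Abcb11 was at 383, 397 and 459 CPM in wild type and at 97.6, 108 and 57.8 CPM in the knockout, a log2 change of -2.23 ± 0.21 (adjusted p = 0.000103). Abcc2 was at 768, 805 and 785 CPM and at 458, 499 and 647 CPM, a smaller change of -0.56 ± 0.14 (adjusted p = 0.0117). No knockout library of either gene reached the lowest wild-type library. In the promoters printed above, the Abcb11 window holds 2 matches to the FXR element, that of Slco1b2 (log2 -0.53) holds 1 and that of Abcc2 holds none, and none was tested for use here.

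The 2 efflux pumps that were tested rose. Abcc4, which exports bile acids together with glutathione, was at 1.07, 2.09 and 2.84 CPM in wild type and at 46.0, 41.6 and 76.6 CPM in the knockout, a log2 change of 4.79 ± 0.34 (adjusted p = 2.18e-05). It was the largest rise among the transporters tested in the knockout, and it brought Abcc4 to 8.57 ± 2.98 CPM per kilobase (SD, n = 3). Abcc3 rose from 459, 558 and 551 CPM to 723, 740 and 861 CPM, with a log2 change of 0.57 ± 0.12 (adjusted p = 0.00599). Slc51b had 2, 2 and 5 counts in wild type and 0 in all 3 knockout libraries, so it did not pass the filter on low counts and no fold is given.

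Cell type markers also moved in the knockout livers, where 40.4% of all genes were called (21% higher and 19.4% lower). Of 9 tested bile duct markers, 6 were called higher, among them Epcam (log2 1.53) and Spp1 (log2 1.68), and none lower. Cftr had 0, 3 and 0 counts in wild type against 21, 25 and 14 in the knockout. It passed the filter on low counts only through the knockout libraries, so it could add only to the higher side. Krt7 (10, 10 and 0 against 21, 23 and 18 counts) also needed knockout libraries to pass. So did Krt19 (15, 12 and 4 against 33, 34 and 27 counts). The summed level of the bile duct markers was 57.3 to 68.1 CPM in wild type and 93 to 164 CPM in the knockout. Spp1 alone made up a large part of it, at 27.7, 30.3 and 21.5 CPM in wild type and 94.6, 115 and 45.4 CPM in the knockout. Of 7 stellate cell markers, 5 were called higher, with sums of 187 to 314 CPM in wild type and 418 to 478 CPM in the knockout. Of 7 periportal hepatocyte markers, 5 were called lower, with sums of 10200 to 12700 CPM and 4260 to 5950 CPM. The part of these shifts in the transporter changes was not tested. Abcc3 is also known in bile duct epithelium.

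**Figure D2:**
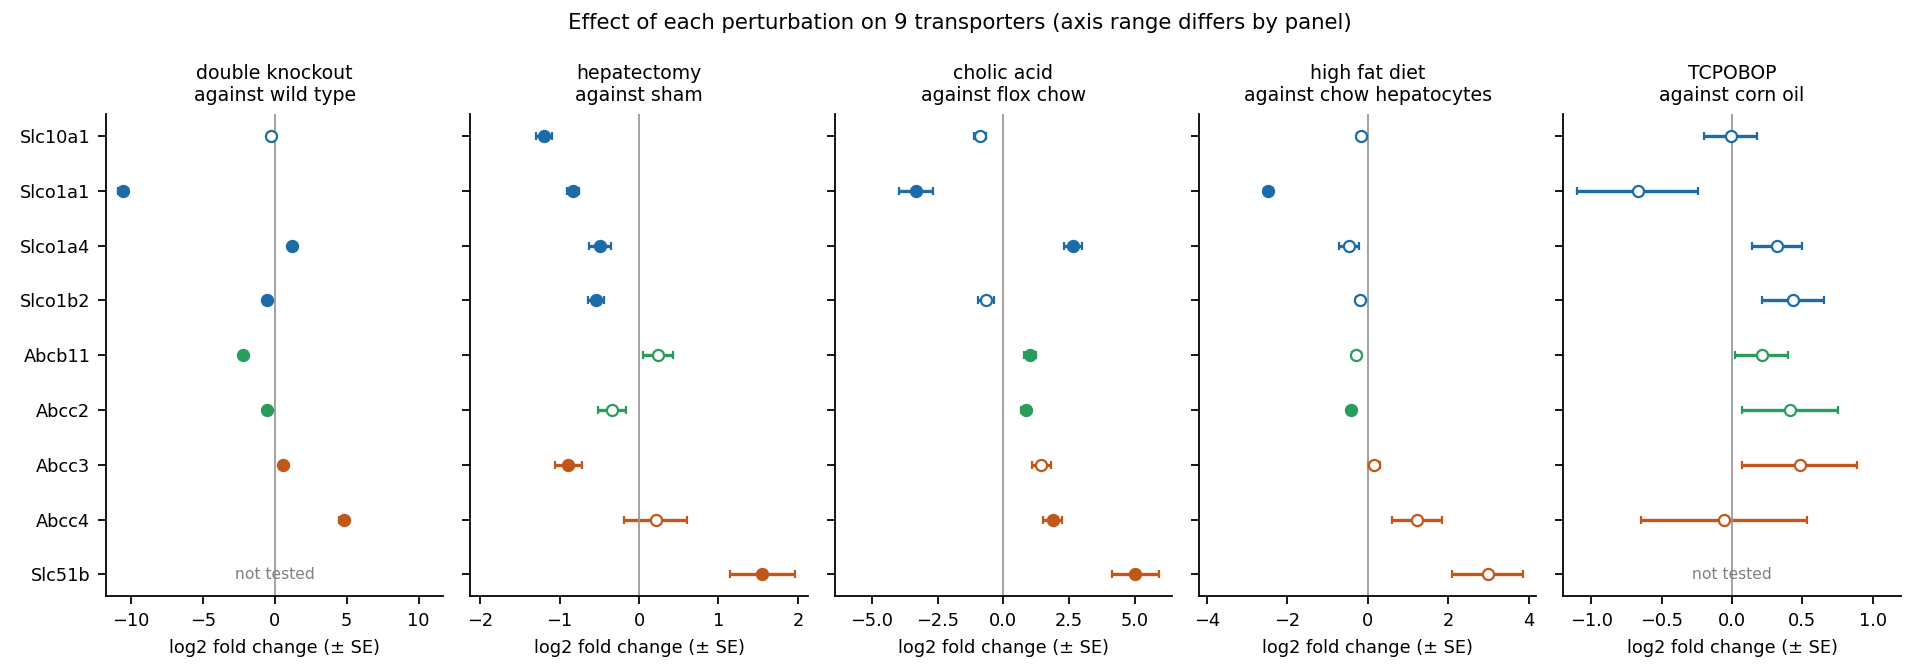
Log2 fold change of each transporter (horizontal axis, with its standard error; the range differs by panel) in the 5 comparisons. Filled points were called at an adjusted p under 0.05 and open points were not; colours mark uptake (blue), canalicular export (green) and basolateral efflux (orange). Slco1a1 lies to the left of 0 in every panel and was called in 4 of the 5.

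Cholic acid feeding lowered Slco1a1 and raised both canalicular pumps, Slco1a4 and 2 efflux genes. Of 9 transporters tested, 6 were called, of which 5 were higher and 1 was lower, while 4.77% of 12577 genes were called (2.27% higher and 2.5% lower). The groups did not overlap for 9 of the 9, against 31.2% of all genes. Slc51b, 1 of the 5 called higher, passed the filter on low counts only through the cholic acid libraries. It could therefore add only to the higher side of these counts. The median log2 fold change was 1.01 over the 9 and 0.01 over all genes. The number called depended on single libraries: it was 1 without chow replicate 1, 1 without chow replicate 2 and 7 without chow replicate 3. The share of all genes called moved in the same direction, to 2.3%, 1.5% and 10.4%. It was 2, 3 and 3 transporters without cholic acid replicates 1, 2 and 3, with 2.13%, 1.48% and 1.54% of all genes called. Slco1a4 alone kept its call in all 6 of these fits. Slco1a1 lost its call without chow 1, chow 2 or cholic acid 1, and Abcc4 without chow 1, chow 2, cholic acid 1 or cholic acid 2. Slc51b lost it without chow 1, chow 2, cholic acid 2 or cholic acid 3. Abcb11 and Abcc2 kept their calls only in the fit without chow 3. With all libraries kept, Abcb11, Abcc2 and Abcc4 also lost their calls when the replicate number was fitted as a block.

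For uptake, Slco1a1 was at 446, 509 and 656 CPM on chow and at 41.8, 13.5 and 105 CPM on cholic acid, a log2 change of -3.33 ± 0.64 (adjusted p = 0.0260). The cholic acid libraries differed from each other by several fold, yet none came near the chow values. Slco1a4 was at 39.4, 93.4 and 98.3 CPM on chow and at 414, 580 and 458 CPM on cholic acid, a log2 change of 2.65 ± 0.35 (adjusted p = 0.00877). These 2 neighbours changed in opposite directions on cholic acid, as in the knockout. Slc10a1 was at 548, 575 and 677 CPM on chow and at 276, 429 and 271 CPM on cholic acid, without overlap. Its log2 value of -0.88 ± 0.22 was not called (adjusted p = 0.0620), but it was without cholic acid replicate 2. Slco1b2 was at 1170, 1140 and 2360 CPM on chow and at 968, 1000 and 985 CPM on cholic acid, with the highest value in chow replicate 3. It was not called either (log2 -0.66 ± 0.29, adjusted p = 0.222). Over all alternatives its log2 value ranged from -0.84 to -0.23.

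Both canalicular pumps rose. Abcb11 was at 555, 493 and 322 CPM on chow and at 969, 915 and 874 CPM on cholic acid, a log2 change of 1.01 ± 0.22 (adjusted p = 0.0418). Abcc2 rose from 432, 394 and 377 CPM to 638, 748 and 765 CPM, a log2 change of 0.84 ± 0.16 (adjusted p = 0.0262). In both cases the groups did not overlap. Their log2 values stayed between 0.81 and 1.18 for Abcb11 and between 0.79 and 1.01 for Abcc2 over all alternatives.

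Among the efflux genes, Slc51b, the beta subunit of the bidirectional carrier, was at 0, 0 and 7 counts on chow and at 60, 154 and 117 counts on cholic acid. The corresponding levels were 0, 0 and 0.498 CPM against 2.97, 8.13 and 5.50 CPM. Summed counts of 331 against 7 gave a ratio of 38.1 with a 95% interval of 18.3 to 95.4, which covers counting error only. The fitted log2 change was 5.01 ± 0.90 (adjusted p = 0.0202), and it ranged from 4.43 to 9.62 over the alternatives, where 2 chow libraries are at 0. The alpha subunit Slc51a, its partner in the carrier, had no count in any of these libraries. Abcc4 rose from 1.38, 1.14 and 2.35 CPM to 6.69, 6.76 and 4.42 CPM, a log2 change of 1.87 ± 0.36 (adjusted p = 0.0243). Abcc3 was at 301, 261 and 112 CPM on chow and at 477, 740 and 612 CPM on cholic acid. It did not overlap between groups but was not called (log2 1.44 ± 0.36, adjusted p = 0.0589) except without chow replicate 3. No bile duct marker among 6 tested was called by edgeR, and 1 had an unadjusted p under 0.05. Their summed level was 63.5 to 88.2 CPM on chow and 76.8 to 121 CPM on cholic acid. Of 7 pericentral hepatocyte markers tested, 3 were called lower, where 4.77% of all genes were called. Their sums were 13000 to 14800 CPM on chow and 6040 to 7870 CPM on cholic acid. The part of these markers in the transporter values was not tested.

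After partial hepatectomy, uptake genes fell while the canalicular pumps were not called. All 4 uptake carriers and Abcc3 fell and Slc51b rose. Of 9 transporters tested, 6 were called (1 higher and 5 lower), and 30.7% of 13753 genes were called (16.4% higher and 14.3% lower). The groups did not overlap for 7 of the 9, as for 47% of all genes. The median log2 fold change was -0.49 over the 9 and 0.01 over all genes.

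Slc10a1 was at 929, 1020 and 1030 CPM after sham surgery and at 462, 445 and 383 CPM after hepatectomy, a log2 change of -1.20 ± 0.10 (adjusted p = 8.86e-05). Slco1a1 fell from 885, 909 and 824 CPM to 492, 481 and 504 CPM (log2 -0.83 ± 0.08, adjusted p = 0.000200). Both genes showed no overlap between the groups. Slco1b2 fell from 1610, 1630 and 1520 CPM to 1170, 1140 and 965 CPM (log2 -0.54 ± 0.10, adjusted p = 0.00486). Slco1a4 was at 52.2, 51.0 and 49.8 CPM and at 45.0, 31.5 and 32.6 CPM (log2 -0.49 ± 0.14, adjusted p = 0.0297). The Slco1a4 call was lost in 5 of the 6 fits with a library left out, and was kept without hepatectomy replicate 1.

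Abcb11 was at 538, 353 and 338 CPM in sham livers and at 546, 406 and 503 CPM after hepatectomy, and the groups overlapped (log2 0.24 ± 0.19, adjusted p = 0.372). Among fits with a library left out, Abcb11 was called only without sham replicate 1. Abcc2 was at 592, 641 and 598 CPM and at 508, 587 and 347 CPM. Its values did not overlap but were not called (log2 -0.34 ± 0.17, adjusted p = 0.169). For efflux, Abcc3 fell from 261, 293 and 255 CPM to 184, 141 and 110 CPM, a log2 change of -0.89 ± 0.17 (adjusted p = 0.00610). Slc51b rose from 23, 11 and 15 counts (0.751, 0.329 and 0.514 CPM) to 36, 45 and 82 counts (1.05, 1.33 and 2.27 CPM). That change was 1.55 ± 0.41 on the log2 scale (adjusted p = 0.0227), and the call was lost without sham 2, sham 3 or hepatectomy 3. Abcc4 was at 1.14, 1.94 and 0.720 CPM and at 1.19, 2.09 and 1.16 CPM, with overlapping groups (log2 0.21 ± 0.40, adjusted p = 0.725). In the same livers, where 30.7% of all genes were called, 4 of 8 general hepatocyte markers were called lower and 1 higher. Their sums were 133000 to 136000 CPM in sham and 101000 to 114000 CPM after hepatectomy. Of the periportal markers 6 of 7 were called lower, with sums of 10300 to 11300 CPM in sham and 5820 to 7030 CPM after hepatectomy. Of 7 bile duct markers tested, 1 was called higher (Krt19, log2 0.88). The part of these markers in the transporter changes was not tested.

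In hepatocytes of mice on the high fat diet, Slco1a1 and Abcc2 fell and no transporter was called higher. These 2 were called among 9 tested, while 24% of 13892 genes were called (12.9% higher and 11.1% lower). The groups did not overlap for 7 of the 9, as for 68.2% of all genes. Medians of the log2 fold change were -0.20 over the 9 and 0.01 over all genes. Slco1a1 was at 814 and 763 CPM on chow and at 140 and 142 CPM on the high fat diet, 17.9% of the chow mean (log2 -2.48 ± 0.09, adjusted p = 0.000386). Abcc2 was at 1120 and 1150 CPM and at 849 and 847 CPM (log2 -0.42 ± 0.08, adjusted p = 0.0214), and this call was kept only without chow replicate 1 among the 4 fits with a library left out. Replicates of these 2 genes lay close together on the high fat diet, with SDs of 1.38 and 1.93 CPM.

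The other transporters were not called in hepatocytes. Slc10a1 was at 675 and 609 CPM on chow and at 542 and 600 CPM on the high fat diet (log2 -0.17 ± 0.10, adjusted p = 0.268). Slco1a4 was at 124 and 70.5 CPM and at 69.2 and 71.4 CPM, with chow replicate 1 above the other 3 libraries (log2 -0.47 ± 0.25, adjusted p = 0.215). Slco1b2 was at 1970 and 2060 CPM and at 1690 and 1810 CPM. Abcb11, the bile salt pump, was at 567 and 474 CPM and at 457 and 403 CPM. Their log2 values were -0.20 ± 0.09 (adjusted p = 0.150) and -0.28 ± 0.12 (adjusted p = 0.153). Abcc3 was at 362 and 473 CPM and at 488 and 436 CPM (log2 0.15 ± 0.15, adjusted p = 0.498). Abcc4 and Slc51b rested on few counts in these hepatocytes. Abcc4 was at 0.107 and 0.552 CPM on chow and at 0.740 and 0.842 CPM on the high fat diet (adjusted p = 0.197). Slc51b had 4 and 0 counts on chow and 25 and 16 counts on the high fat diet, a ratio of 9.12 with a counting interval of 3.30 to 35.1, and was not called (adjusted p = 0.0593). Only the high fat diet libraries brought Slc51b past the filter on low counts. With 1 chow library left, which was assumed to vary like the treated libraries, Slco1a4 and Abcc4 were called without chow replicate 2. Slc51b was called without chow replicate 1, against a lone control at 0 counts. Traces of other cells also differed between these preparations, where 24% of all genes were called. Of 7 sinusoidal endothelial markers, 7 were called higher, with sums of 42.9 to 44.2 CPM on chow and 103 to 106 CPM on the high fat diet. Of 8 pericentral hepatocyte markers, 7 were called lower (sums of 13700 to 14500 against 8730 to 9560 CPM). The part of either list in the transporter values was not tested.

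TCPOBOP gave no called transporter against corn oil. None of 8 tested was called, and 0% of 12785 genes were called by edgeR at an adjusted p under 0.05. An unadjusted p under 0.05 was found for 0 of the 8 transporters and 751 of all genes (5.87%), and DESeq2's Wald test called 109 genes but no transporter. The comparison rests on a control group whose 2 libraries disagree. Abcc2 had 1040 CPM under the label corn oil 1 and 572 CPM in corn oil 2, against 1180 and 965 CPM after TCPOBOP. Abcc3 was at 700 and 312 CPM against 723 and 691 CPM, and Abcc4 at 12.4 and 3.55 CPM against 7.41 and 7.98 CPM. In all 3 genes the library labelled corn oil 1 lay between or above the TCPOBOP libraries and corn oil 2 lay below them. Cyp2b10 separated the 2 corn oil libraries in the same direction.

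Without the library labelled corn oil 1, Abcc2 (log2 0.91 ± 0.18, adjusted p = 0.0175), Abcc3 (1.18 ± 0.15, adjusted p = 0.00245) and Abcc4 (1.12 ± 0.28, adjusted p = 0.0437) were called higher among 9 tested. In that fit 9.35% of 13190 genes were called (5.71% higher), and the lone control was assumed to vary like the treated libraries. Without corn oil 2, no transporter was called by edgeR (3.14% of all genes were), and the log2 values were 0.04 for Abcc2, 0.02 for Abcc3 and -0.69 for Abcc4.

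The remaining genes were not called in either fit. Slc10a1 was at 605 and 524 CPM against 610 and 513 CPM. Slco1a1 was at 302 and 504 CPM against 338 and 167 CPM, with overlapping groups (log2 -0.67 ± 0.43, adjusted p = 0.920). Slco1b2 was at 1340 and 1460 CPM against 2040 and 1760 CPM (log2 0.43 ± 0.22, adjusted p = 0.890), and both TCPOBOP libraries lay above both corn oil libraries. The same order without overlap held for Slco1a4 (74.8 and 93.2 against 113 and 96.1 CPM) and Abcb11 (775 and 723 against 936 and 793 CPM), so 3 of 8 transporters did not overlap, all of them higher. In this experiment 35.4% of all genes did not overlap, 16.8% with TCPOBOP higher. Slc51b had 2 and 10 counts against 8 and 9 counts and was not tested.

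**Figure D3:**
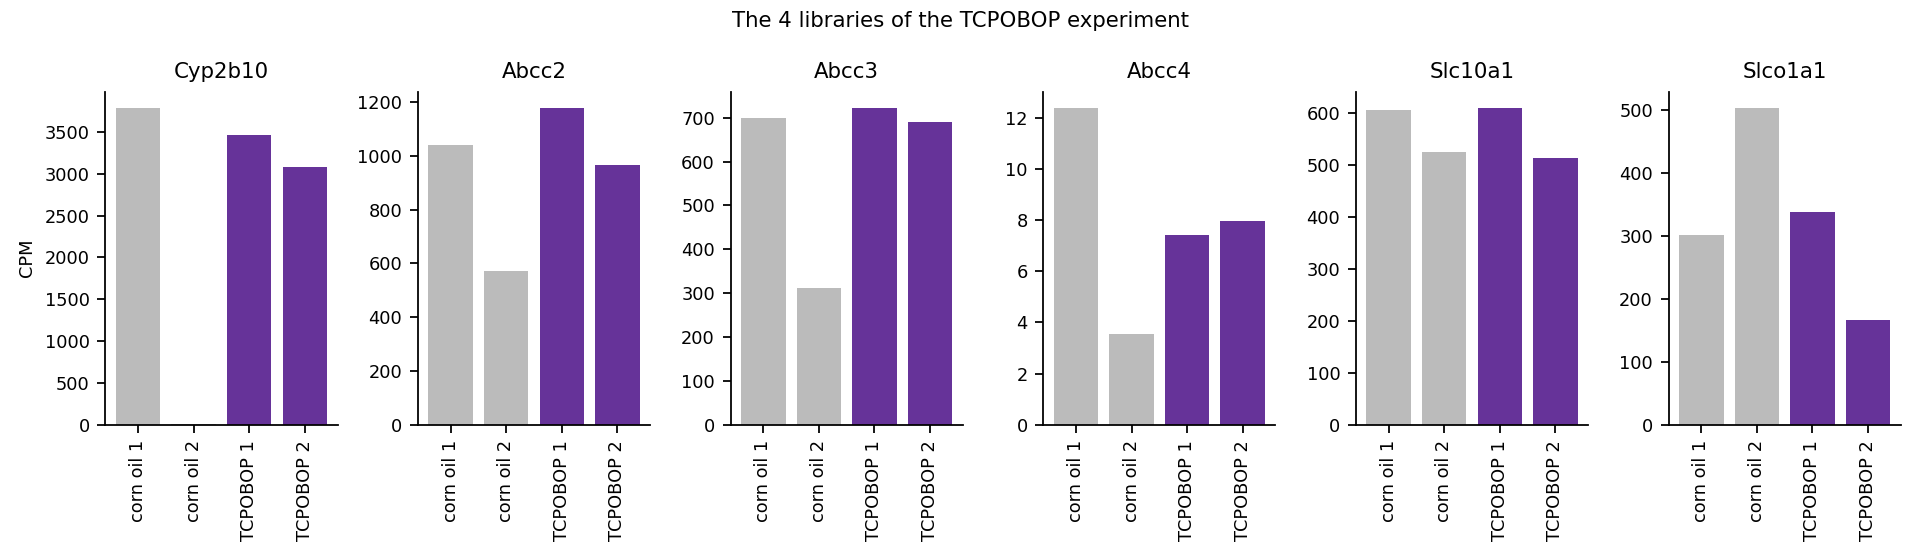
Level (vertical axis, CPM, from 0) of the CAR target Cyp2b10 and of 5 transporters in the 4 libraries of the TCPOBOP experiment; grey bars are libraries labelled corn oil and purple bars are TCPOBOP. Abcc2, Abcc3 and Abcc4 are high in the library labelled corn oil 1 and low in corn oil 2, as is Cyp2b10 (3790 against 10.3 CPM).

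Whether the effects differed between the 3 whole-liver experiments with 3 libraries a group was tested by interaction contrasts, each over 12 libraries. Abcb11 changed in opposite directions in the knockout and on cholic acid: the difference of log2 fold changes (knockout minus cholic acid) was -3.24 (95% interval -3.90 to -2.58, adjusted p = 9.89e-05). Abcc2 did likewise, with a difference of -1.39 (-1.79 to -0.99, adjusted p = 0.000957). Abcc4 and Slco1a4 rose in both, with a larger rise of Abcc4 in the knockout (2.91, 1.88 to 3.94, adjusted p = 0.00334) and a larger rise of Slco1a4 on cholic acid (-1.43, -2.18 to -0.68, adjusted p = 0.0267). The Slco1a4 difference lost its call in 6 of the 12 fits with a library left out. Altogether 6 of 9 transporters differed between these 2 effects, where 13.9% of 13935 genes did. One of them, Slc51b, has 0 counts in every knockout library and passed the filter only through the cholic acid experiment, and without it 5 of 8 differed.

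Slco1b2 was the 1 gene of 9 for which no contrast found a difference. Its log2 differences were 0.14 (95% interval -0.53 to 0.81) between knockout and cholic acid, 0.13 (-0.52 to 0.78) between hepatectomy and cholic acid, and 0.02 (-0.30 to 0.34) between knockout and hepatectomy. These intervals hold differences of up to 0.81. Between hepatectomy and cholic acid, 5 of 9 transporters differed (13% of 13985 genes), and 4 of 8 without Slc51b. In the 12 fits with a library left out, the Slc51b difference lost its call in 9 and the Slco1a1 difference in 7. Slco1a4 had the smallest adjusted p (-3.14, -3.92 to -2.35, adjusted p = 0.000536), and it fell in one and rose in the other. Between knockout and hepatectomy, 7 of 9 differed (31.5% of 14755 genes), and 6 of 8 without Slc51b, which again is at 0 counts in the knockout. Slc10a1 was among them (0.95, 0.58 to 1.31, adjusted p = 0.00192), and it was called lower after hepatectomy but not in the knockout. The 3 contrasts share groups with each other, so their counts are not independent.

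**Figure D4:**
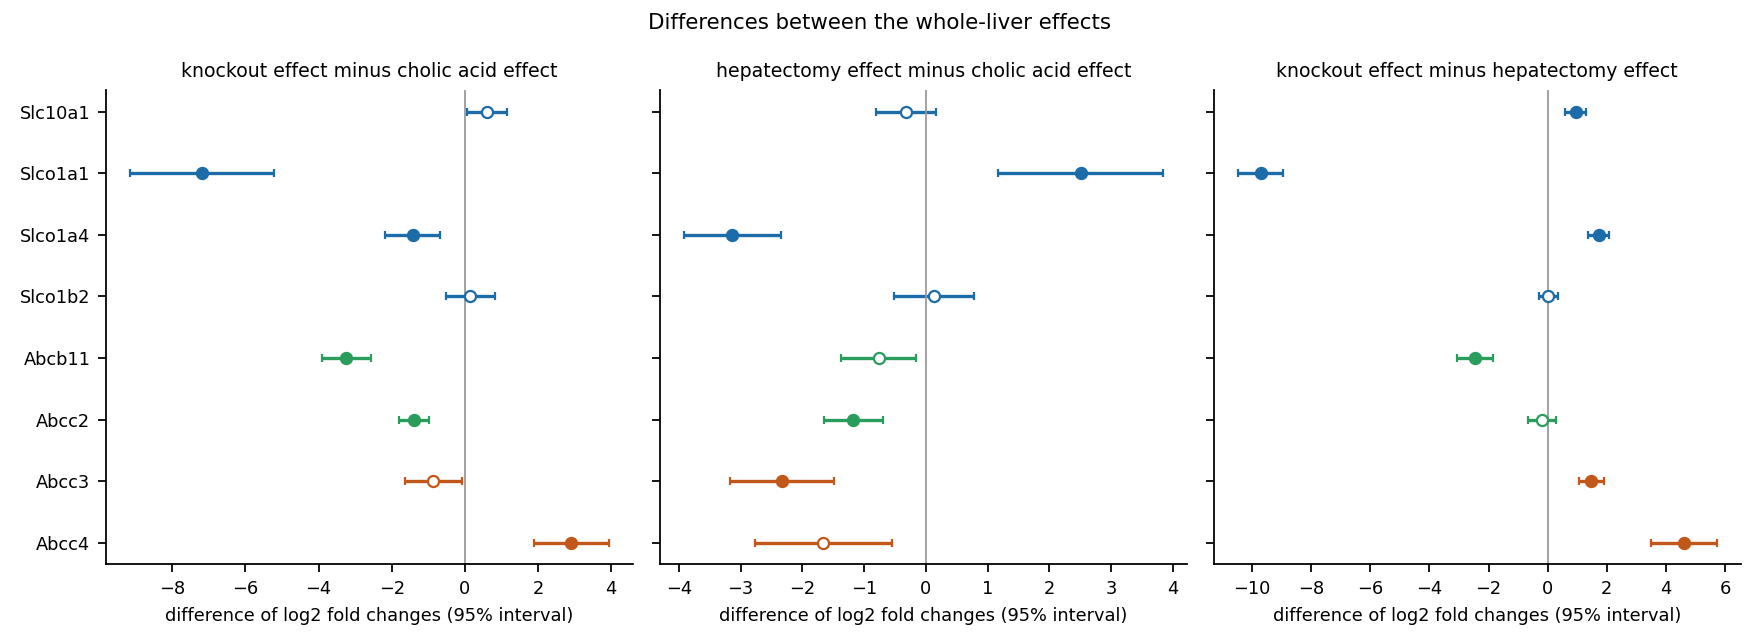
Difference of log2 fold changes between pairs of whole-liver effects (horizontal axis, with 95% intervals; the range differs by panel) for 8 transporters. Filled points were called at an adjusted p under 0.05; Slc51b is left out because its knockout libraries are at 0. Slco1b2 lies near 0 in all 3 panels, and Abcb11 lies at -3.24 and -2.46 in the panels with the knockout.

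Genes around the transporters were counted from lists of regulators, synthesis enzymes and other carriers. Among 19 tested regulators, 10 were called lower and 1 higher in the knockout, where 40.4% of all genes were called. Nr1h4 and Nr0b2, the 2 deleted genes, are among the 10, and without them 8 of 17 were lower. The largest fall of these 8 was that of Cebpb (log2 -1.5), a liver-enriched transcription factor, and the gene that rose was Nfe2l2 (log2 0.65), the regulator of antioxidant genes. Cholic acid, with 4.77% of all genes called, raised Nr0b2 (log2 1.96) and Nr1i2 (log2 0.68), the pregnane X receptor, and lowered Nr1h4 (log2 -1.01). After hepatectomy (30.7% of all genes) 2 regulators rose, Nr0b2 (log2 1.99) and Nfe2l2 (log2 0.48), and 5 fell, led by Nr1i2 (log2 -0.73) and Nr1i3 (log2 -0.71), the receptor CAR. In high fat diet hepatocytes (24% of all genes) 3 regulators fell, among them Ahr (log2 -1.09) and Klb (log2 -0.69), a co-receptor for a gut hormone that represses bile acid synthesis.

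Of 18 bile acid synthesis and conjugation genes, none rose and 7 fell on cholic acid, where 4.77% of all genes were called. Cyp7a1, the rate-limiting enzyme of the classic pathway, was at 109, 157 and 711 CPM on chow and at 1.24, 0.897 and 0.706 CPM on cholic acid (log2 -8.42, and -7.13 without chow replicate 3). Cyp8b1, the enzyme that directs synthesis to cholic acid, was at 651, 708 and 1190 CPM and at 2.08, 1.58 and 1.65 CPM (log2 -8.90). These falls came with the rises of Abcb11 and Slc51b in the same livers. In the knockout (40.4% of all genes called) 3 rose and 7 fell, with Cyp7a1 higher (log2 1.02) and Cyp7b1, an enzyme of the alternative pathway, lower (log2 -3.72). Hepatectomy (30.7%) gave 2 rises and 8 falls, including Cyp8b1 (log2 -1.59) and Cyp27a1 (log2 -0.93). The high fat diet (24%) gave 1 rise, that of Akr1d1 (log2 1.34), and 4 falls, the largest in Cyp7b1 (log2 -3.66). Cyp7b1 and Slco1a1 were both called lower in the knockout, on the high fat diet and on cholic acid (Cyp7b1 log2 -2.89).

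Of 10 other canalicular pumps, 3 rose and 1 fell on cholic acid (4.77% of all genes called). Abcb1a, a multidrug pump, rose from a mean of 1.40 CPM to 43.2 CPM (log2 4.94), and Abcg5, a subunit of the sterol pump, rose by 1.86 on the log2 scale. Slc47a1, an exporter of organic cations, fell (log2 -1.06). In the knockout (40.4%) 2 rose, Abcb1a (log2 1.96) and Slc47a1 (log2 0.99), and 4 fell, among them the phospholipid translocator Abcb4 (log2 -0.61) and the aminophospholipid flippase Atp8b1 (log2 -0.67). After hepatectomy (30.7%) 3 fell, with Abcg5 (log2 -0.80) and Abcg8 (log2 -0.65) in front, and none rose. The high fat diet (24%) gave 3 rises and 3 falls, with Abcb1a higher (log2 3.4) and Abcb4 lower (log2 -0.52).

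Among 10 tested organic anion carriers outside the main set, the knockout gave 3 rises and 3 falls, where 40.4% of all genes were called. Abcc5 (log2 1.92) and Abcc1 (log2 1.5), further efflux pumps, rose beside Abcc3 and Abcc4, and Slc22a7 (log2 -3.16) and Slco2a1 (log2 -1.13) fell. On cholic acid (4.77%) Ephx1, an epoxide hydrolase listed because it has been proposed to carry bile acids, rose (log2 1.59) and Slc22a7, an organic anion carrier of the sinusoidal membrane, fell from a mean of 40.8 to 2.07 CPM (log2 -4.28). Hepatectomy (30.7%) gave 1 rise, Slco3a1 (log2 0.75), and 2 falls, Abcc6 (log2 -1.37) and Slco2b1 (log2 -0.72). On the high fat diet (24%) 3 rose and 2 fell, with Slco2a1 lower (log2 -1.48). Of 14 tested scaffold and trafficking genes, numbers near these shares of all genes were called: 5 were called in the knockout (3 higher and 2 lower), 5 after hepatectomy (4 higher and 1 lower), 3 on the high fat diet (1 higher and 2 lower) and 0 on cholic acid, where 4 had an unadjusted p under 0.05 in edgeR. Stx3, an apical membrane fusion protein, had the largest rise of these in the knockout (log2 2.35). Numbers near the share of all genes were also called in other lists, such as the pumps and carriers after hepatectomy and the synthesis genes on the high fat diet. After TCPOBOP no gene of these 5 lists was called by edgeR. An unadjusted p under 0.05 was found there for 1 of 19 regulators, 4 of 18 synthesis genes, 1 of 10 pumps, 1 of 10 carriers and 2 of 14 scaffold genes. Without the library labelled corn oil 1, where 9.35% of all genes were called, 1 regulator was called higher and 1 lower. In that fit 1 synthesis gene was higher and 4 were lower, 4 pumps were lower, 2 carriers were higher and 2 scaffold genes were higher. Without chow replicate 3 of the cholic acid experiment (10.4% of all genes), 3 regulators were called higher and 1 lower, 1 synthesis gene higher and 7 lower, and 4 pumps higher and 1 lower. The carriers then had 1 higher and 1 lower.

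The genes whose pattern was most like that of 4 transporters were found by Pearson's r over the 26 libraries, each library taken relative to the mean of its own control group on a log2 scale, among 10532 genes. Libraries of an experiment share their control mean, so r is a description. For Abcb11 they were Skiv2l (r = 0.97), Ero1lb (0.93) and Uba1 (0.92). Without the 6 libraries of the knockout experiment, r fell to 0.89, 0.70 and 0.77 over 20 libraries. For Slc10a1 they were Sdhb (0.91), Slc6a12 (0.90) and Tfb2m (0.90), and r was 0.90 to 0.92 without that experiment. For Abcc4 they were Robo1 (0.95), Slc18a1 (0.93) and Vldlr (0.93), and r was 0.66 to 0.83 without it. For Slc51b they were Ildr2 (0.91), Shroom3 (0.91) and Srgap2 (0.89), and r was 0.90 to 0.93 without it. All of them were called higher on cholic acid (log2 3.01, 1.46 and 0.94). The cholic acid libraries hold the largest Slc51b values on this scale (2.46, 3.78 and 3.25). The choice by likeness thus favours genes that rise there, and these calls are no separate result. For Abcb11 and Abcc4 these correlations were lower without the knockout experiment, and for Slc10a1 and Slc51b they were not.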

How the data were processed

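Messenger RNA of 26 mouse liver libraries was sequenced after preparation with a strand-specific TruSeq kit, per the labels' protocols. The authors deposited 1 table of raw read counts per gene for 47643 versioned Ensembl identifiers. It also held 5 summary lines, which were left out of library sizes. Per library, reads in no gene came to 3.19% to 5.37% of a column's total over all lines, and ambiguous reads to 1.02% to 3.73%. Reads without a unique alignment came to 16.6% to 44.1%. This share was 43.4%, 44.1% and 43.2% in wild type against 26.7%, 26.9% and 25.5% in the knockout. Cholic acid libraries (17.2%, 16.6% and 17.6%) lay below their controls (25.1%, 23.8% and 23.9%). So did high fat diet libraries (19.0% and 19.3%, controls 24.6% and 23.8%). The gap was small for hepatectomy, and the TCPOBOP groups overlapped. The part of this share in the calls was not tested. The submitters' processing notes name GRCm38/mm10, STAR 2.4.2a, Trimmomatic, Picard 1.119, HTSeq and bcl2fastq 2.17.1.14 with no role or order. The annotation release and the strand setting of the counting are not given in the sources used here, so reads of genes that overlap on opposite strands may have been lost or shared. Columns were matched to samples by the number that opens each title, and symbols came from a mouse gene name table (47224 identifiers matched).

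From these counts, each experiment was fitted on its own over all genes with edgeR 4.0.16 in R 4.3.3: filterByExpr at its defaults (minimum count 10, minimum total 15), TMM scaling and the quasi-likelihood F test, with Benjamini-Hochberg adjustment over all genes tested and a call at 0.05. Standard errors were taken as |log2 fold change| over the root of F. Differences between effects were interaction contrasts over 12 libraries, with 95% intervals. CPM are TMM-scaled within an experiment, and per-kilobase values use the union of exons in GENCODE M21. The floor is 3 counts, and intervals of count ratios are exact, conditional on the total. The procedure was tested on simulated counts. The transporters, gene lists and tests were chosen with earlier results of these data known. All transporters are named; of the other lists, the 2 called genes with the largest rise and fall per comparison that average a log2 CPM of at least 1, and a few targets of the perturbations. One regulator is not reported here. Alternatives were DESeq2 1.42.0, its size factors, library totals, 2 other filters, a single fit of all 26 libraries, the replicate number as a block, and leaving out each library.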

Additional observations from a re-analysis of the deposited data

Results flagged for a closer look

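The transporters below differed between the effects of 2 whole-liver perturbations by a test of the difference itself (edgeR interaction contrast, adjusted over all genes tested, 12 libraries each). Values are differences of log2 fold changes.

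For the knockout effect minus the cholic acid effect, the differences were -7.19 for Slco1a1 (adjusted p = 0.000782), -1.43 for Slco1a4 (0.0267), -3.24 for Abcb11 (9.89e-05), -1.39 for Abcc2 (0.000957) and 2.91 for Abcc4 (0.00334). The fitted value for Slc51b was -9.73 (0.00965), but all 3 knockout libraries are at 0 counts, so it gives no size.

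For the hepatectomy effect minus the cholic acid effect, the differences were 2.51 for Slco1a1 (adjusted p = 0.0303), -3.14 for Slco1a4 (0.000536), -1.18 for Abcc2 (0.00833), -3.49 for Slc51b (0.0465) and -2.33 for Abcc3 (0.00477). Slc51b lost this call in 9 and Slco1a1 in 7 of the 12 fits with a library left out.

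For the knockout effect minus the hepatectomy effect, the differences were 0.95 for Slc10a1 (adjusted p = 0.00192), -9.71 for Slco1a1 (5.79e-09), 1.72 for Slco1a4 (2.29e-05), -2.46 for Abcb11 (9.06e-05), 1.48 for Abcc3 (0.000263) and 4.60 for Abcc4 (6.89e-05). Slc51b gave -6.76 (0.00564) with the same limit of 0 counts in the knockout. The experiments differ in strain, age and feeding, so the perturbation and these conditions cannot be told apart in such differences.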

How the results depend on the processing

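Over 1038 single-transporter alternatives, 928 kept the direction and the side of the threshold, 68 lost a call, 23 gained one and 19 changed sign. Leaving out 1 library at a time gave 0 to 3 transporters called for TCPOBOP (3 only without the library labelled corn oil 1), 7 to 8 for the knockout, 4 to 6 for hepatectomy, 1 to 3 for the high fat diet and 1 to 7 for cholic acid. For the differences it gave 4 to 6 (knockout minus cholic acid), 3 to 6 (hepatectomy minus cholic acid) and 7 to 7 (knockout minus hepatectomy). A single fit of all 26 libraries called 2 transporters after hepatectomy and 1 on the high fat diet, and library totals alone called 1 on the high fat diet; the cause was not tested. Library totals moved the median of all genes to -0.11 (TCPOBOP), 0.19 (knockout), 0.20 (hepatectomy), 0.14 (high fat diet) and 0.19 (cholic acid).

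With the replicate number as a block, 3 transporters were called on cholic acid (2 higher and 1 lower; Abcb11, Abcc2 and Abcc4 lost their calls), 7 in the knockout, 6 after hepatectomy, 3 on the high fat diet and 0 after TCPOBOP. Same-numbered libraries deviated together weakly on cholic acid (correlations 0.13, 0.158 and 0.0975, each library closest to its own number). Same-numbered libraries also had a positive correlation with TCPOBOP (0.121) and on the high fat diet (0.13). With 2 libraries a group, however, all correlations of an experiment have the same size and differ only in sign. Each of these 2 experiments therefore gives a single sign, which cannot show pairing. Same-numbered libraries did not all deviate together in the knockout (-0.198, -0.0314 and -0.00722) or hepatectomy (-0.0757, 0.105 and -0.0112). No label ties the numbers to shared animals or batches, so the fits reported above have no block. These correlations do not settle whether the numbers pair libraries on cholic acid.

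Every sign change was of a value that was not called in the fit reported above. For TCPOBOP, Slc10a1 became 0.00 with DESeq2 or its size factors or all libraries, 0.10 without corn oil 1, and -0.13 to 0.14 over the libraries left out (0.14 without TCPOBOP 2). Abcc4 became 0.18 with the block, 1.12 without corn oil 1 and 0.00 without TCPOBOP 1 (range -0.69 to 1.12 over the libraries left out). After hepatectomy, Abcc4 became -0.07 without sham 3 and -0.12 without hepatectomy 2 (range -0.12 to 0.66). Abcc3 on the high fat diet became -0.04 without chow 1 (range -0.04 to 0.35). The Slco1b2 differences became -0.30 (knockout minus cholic acid) and -0.31 (hepatectomy minus cholic acid) without flox chow 3 (ranges -0.30 to 0.31 and -0.31 to 0.31). Knockout minus hepatectomy became -0.01 with no filter or all libraries, and -0.03, -0.05, -0.02 and -0.06 without wild type 3, knockout 1, knockout 2 and hepatectomy 3 (range -0.06 to 0.09). Slc51b and, in hepatocytes, Abcc4 rest on few counts, and Slc51a on 0 in every library, so small differences in them were not detectable at these depths.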

Other observations

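The balance between roles was described by ratios of CPM per kilobase within a library, chosen after the values were seen and not tested. The ratio of Abcb11 (export) to Slc10a1 (uptake) was 0.333 to 0.387 in wild type and 0.0477 to 0.123 in the knockout. It was 0.141 to 0.248 in sham livers and 0.390 to 0.562 after hepatectomy, and 0.912 to 1.5 on cholic acid against 0.203 to 0.433 on chow. After hepatectomy Slc10a1 was called lower and Abcb11 was not called. In hepatocytes the ratio overlapped between chow (0.333 to 0.359) and the high fat diet (0.287 to 0.360).

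The ratio of Abcc3 (efflux to blood) to Abcc2 (export to bile) was 0.895 to 1.05 in wild type and 1.99 to 2.36 in the knockout. It was lower after hepatectomy (0.359 to 0.543) than in sham livers (0.640 to 0.684), and higher on the high fat diet (0.772 to 0.860) than on chow (0.485 to 0.616). On cholic acid it was 1.12 to 1.48 against 0.445 to 1.04, and with TCPOBOP the groups overlapped (0.917 to 1.07 against 0.817 to 1.01). The value of 0.445 is that of chow replicate 3 of the cholic acid experiment, and chow replicates 1 and 2 were at 1.04 and 0.995. The ratio of Slco1a4 to its neighbour Slco1a1 was above all of its control libraries in each treated library, in all 5 experiments. After hepatectomy, where both genes fell, the margin was small (0.0532 to 0.0753 against 0.0461 to 0.0497 in sham livers). In the knockout it was 1070 to 12900 against 0.668 to 0.852 in wild type, and the knockout values rest on 10, 1 and 1 counts of Slco1a1. Cholic acid gave 3.57 to 35.3 against 0.0727 to 0.151 for chow. The ratio was 0.0760 to 0.126 in chow hepatocytes and 0.406 to 0.413 in high fat diet hepatocytes. For TCPOBOP it was 0.152 to 0.204 in corn oil and 0.275 to 0.474 after treatment.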
